A study of Triticum aestivum with 12 samples.

Results

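Root transcripts were compared between Sp. LK and C. LK, the pair of groups whose sampled roots both stood in low potassium (K) but whose plants differed in what the rest of the root system received. In C. LK both compartments of the split-root system held 0.005 mmol/L K2SO4. In Sp. LK the sampled compartment held the same 0.005 mmol/L K2SO4 and the other compartment of the same plants held 1.0 mmol/L. The comparison therefore asks how low-K roots change when roots of the same plant have normal K. All plants were wheat (Triticum aestivum) of the genotype Tongzhou916, moved at 3 weeks of age from normal-K solution into the split-root system for 5 days. Each group had 3 biological replicates, each 1 array made from 20 plants according to the methods, so 6 of the 12 arrays of the series belong to the comparison. The other 6 arrays were Sp. NK, the normal-K compartment of the split plants, and C. NK, with 1.0 mmol/L in both compartments. The labels do not say whether a Sp. LK and a Sp. NK array came from the same plants. Of 61290 probe sets on the array, 111 AFFX and 64 RPTR control probe sets were left out, which left 61115. A probe set is the group of probes that reports a single transcript or transcript cluster, and 26541 of them had a mean log2 signal of at least 7 (a signal of 128) over the 12 arrays and are called bright.

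Potassium is the main inorganic cation of plant cells and drives turgor, membrane voltage and enzyme activity. Roots take it up through high-affinity transporters, of which the HAK family is known to be induced in several cereals when external K is low, and through voltage-gated channels that work at higher supply. Uptake against the gradient is paid for by plasma membrane proton pumps, which depend on ATP from respiration, and K status is signalled both within the root and between root and shoot.

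Without correction for the number of probe sets, 1823 probe sets rose from C. LK to Sp. LK (2.98% of those tested) and 1095 fell (1.79%) at the study's thresholds of p under 0.05 and fold change above 1.5, with p from limma. Among the bright probe sets 696 rose (2.62%) and 370 fell (1.39%). No probe set passed 0.05 after Benjamini-Hochberg adjustment over all 61115, the lowest adjusted p was 0.169, and the methods' t-test gave 0 as well. An unadjusted p under 0.05, whatever the fold, was reached by 4579 probe sets (7.49%) and by 2725 of the bright ones (10.3%). Every rise and fall named below is therefore a call at the unadjusted thresholds. The median log2 fold change of the bright probe sets was 0.02, with a median SE of 0.19. The counts moved with single arrays. The rises among the bright probe sets numbered 426 without C. LK replicate 2, 362 without Sp. LK replicate 2 and 1171 without C. LK replicate 3. The falls numbered 718 without Sp. LK replicate 1, 632 without C. LK replicate 3 and 600 without Sp. LK replicate 3. Without both arrays numbered 2 there were 227 rises and 283 falls.

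**Figure D1:**
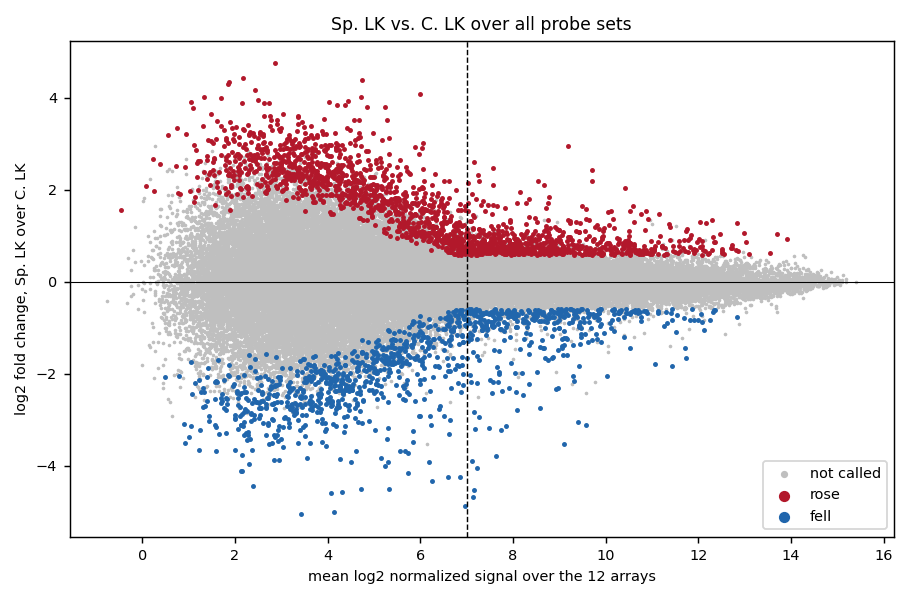
Log2 fold change of Sp. LK over C. LK (vertical axis) against the mean log2 normalized signal over the 12 arrays (horizontal axis) for 61115 probe sets, with called rises in red, called falls in blue and the dashed line at the bright threshold of 7. The largest falls among the bright probe sets reach farther from 0 than the largest rises, to a log2 fold change of -4.67 against 2.94.

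Rises were more numerous than falls, but the falls were larger. The 696 bright rises had a median log2 fold change of 0.76, and 143 of them passed 2-fold and 12 passed 4-fold. The 370 bright falls had a median of -0.81, and 112 passed 2-fold and 33 passed 4-fold. All 3 Sp. LK arrays lay above all 3 C. LK arrays in 546 of the rises and below them in 301 of the falls. Such full separation was seen upwards in 9.31% and downwards in 6.26% of all bright probe sets. The calls were made on the difference between these same arrays, so their more frequent separation is not independent evidence. The called share was 3.49% rises and 1.87% falls at mean log2 signals of 7 to 9 and 1.47% and 0.53% at 11 or more. Of the 696 rises, 290 had another bright probe set in their transcript cluster. In 264 of these all of the others were also higher in Sp. LK, in 168 another was called as a rise, and in none was another called as a fall. For the 160 such falls these numbers were 135, 76 and 0. Over all bright probe sets with another in their cluster, all of the others had the same sign in 63.7%.

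The potassium ion transport gene LOC543226 (probe set Ta.113.1.S1_at) was down-regulated in the low-K roots of split plants. This probe set is 1 of the 2 that the study annotated to potassium ion transport. The study's qRT-PCR primers for it are shown because they mark the transcript stretch by which it can be followed up.
Ta.113.1.S1_at forward: tgccaggacaaaccatacagc
Ta.113.1.S1_at reverse: gccttccatagagcatgacca
Its normalized signal in C. LK was 738, 1055 and 699 on replicates 1 to 3. In Sp. LK it was 369, 371 and 154. All Sp. LK arrays were thus below all C. LK arrays, and C. LK was the only group with signals above 400, since Sp. NK gave 204 to 234 and C. NK 158 to 285. The means were 831 ± 195 in C. LK and 298 ± 125 in Sp. LK (SD, n = 3), a 2.95-fold difference. The log2 fold change was -1.56 ± 0.32 (SE), with a limma adjusted p = 0.339 (2.46e-04 unadjusted). The call was kept in each of the 12 fits that left out a single array. The change from uniform to split supply on the other side, Sp. NK vs. C. NK, was 0.00 ± 0.32 (SE). The difference between the sides was -1.56 ± 0.45 (SE), adjusted p = 0.982 (0.00382 unadjusted).

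The second potassium ion transport probe set, TaAffx.52479.1.S1_at, was dimmer, and its mean lies under the bright threshold. It read 178, 165 and 195 in C. LK against 109, 136 and 88.1 in Sp. LK. Its log2 fold change was -0.71 ± 0.32 (SE), adjusted p = 0.648 (0.0405 unadjusted). The groups did not overlap, but the call was lost without any of C. LK replicates 1, 2 and 3 or Sp. LK replicates 1 and 3. LOC543086 (Ta.14486.1.S1_at), annotated by the study to oxygen transport, read 720, 1018 and 783 in C. LK. In Sp. LK it read 583, 507 and 453, all below C. LK. The log2 fold change was -0.70 ± 0.19 (SE), adjusted p = 0.485 (0.00256 unadjusted), and the call was lost without C. LK replicate 2, the array with the highest signal. On the normal-K side its change was 0.00 ± 0.19 (SE), and the difference between the sides had an adjusted p = 0.982 (0.0214 unadjusted).

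Genes annotated to phosphorylation, the transfer of phosphate by which kinases relay signals, fell as well. LOC778380 (Ta.27859.1.A1_at) read 362, 285 and 317 in C. LK and 137, 153 and 185 in Sp. LK. The 2.04-fold difference had a log2 fold change of -1.03 ± 0.20 (SE), adjusted p = 0.317 (1.83e-04 unadjusted), and the difference between the sides had an adjusted p = 0.982 (0.0337 unadjusted). TaAffx.102420.1.S1_at fell by 0.66 on the log2 scale, from 540 to 709 in C. LK to 348 to 449 in Sp. LK, a call that was lost without C. LK replicate 1 or Sp. LK replicate 2. A class of kinases that act on serine and threonine held 2 probe sets, of which Ta.27576.1.A1_at fell by 0.74 on the log2 scale. Ta.5331.1.A1_x_at had a log2 fold change of -0.70, adjusted p = 0.688 (0.0698 unadjusted), and was not called.

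**Figure D2:**
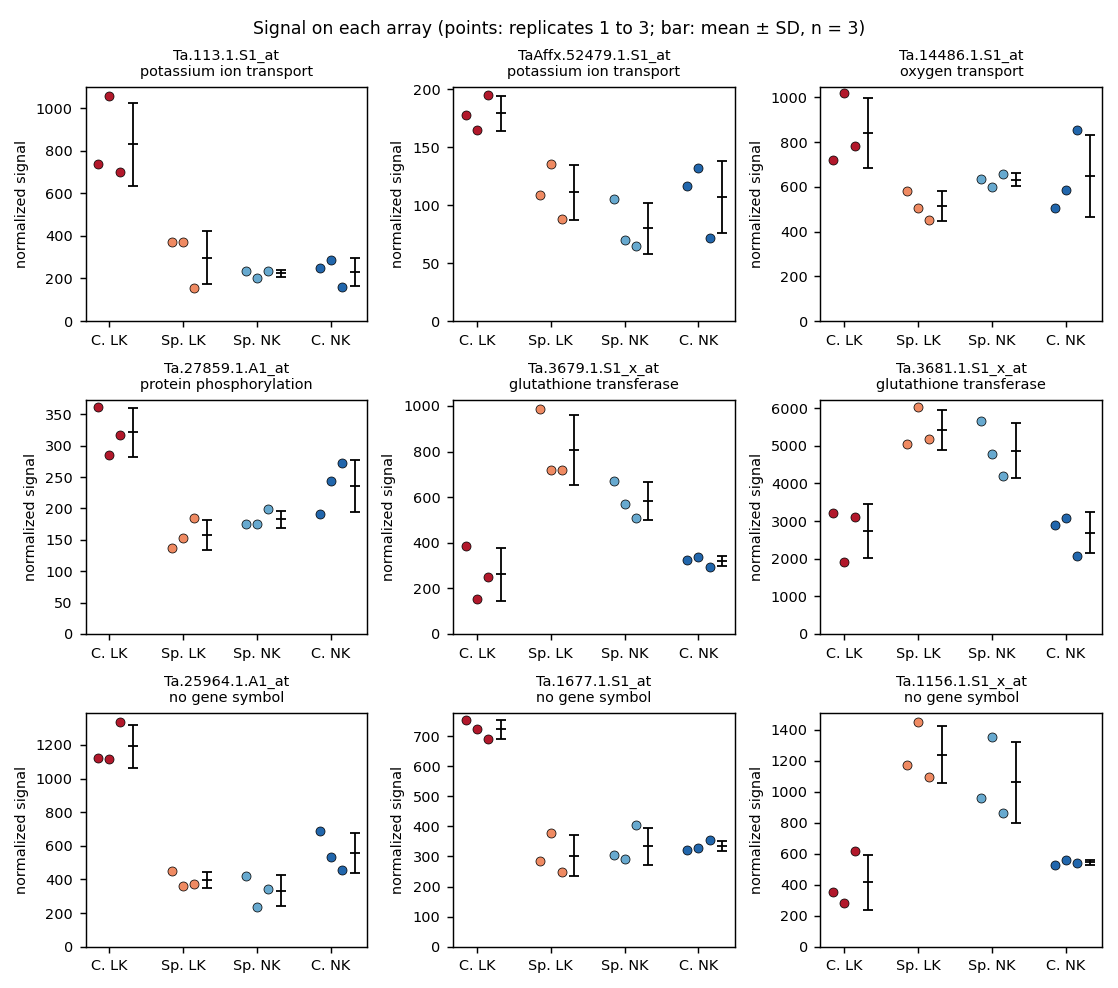
Normalized signal (vertical axes, from 0) of 9 probe sets on each of the 12 arrays, by group, with each point a replicate and the bar giving the mean ± SD over the 3 replicates. C. LK stands above Sp. LK in the panels of potassium ion transport, oxygen transport and protein phosphorylation and in those of Ta.1677.1.S1_at and Ta.25964.1.A1_at, and below Sp. LK in those of glutathione transferase and Ta.1156.1.S1_x_at.

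These genes belong to a list of 39 probe sets that the study drew up from the same 6 arrays as lower in Sp. LK, so its direction is not independent evidence. Of the 39, 34 were called as falls and 5 were not, and all 39 had lower signals on every Sp. LK array than on every C. LK array. Their median log2 fold change was -0.76, between -2.79 and -0.59, beside 0.04 over all probe sets tested. All 11 probe sets of the cytoplasmic membrane-bounded vesicle class and all 10 of the plastid class fell, with medians of -0.76 and -0.83. Ta.1290.1.S1_x_at and Ta.1290.1.S1_a_at share a cluster, as do Ta.1995.1.S1_at and Ta.1995.3.S1_a_at. In these classes' clusters, bright probe sets outside the list were mixed. Not called were Ta.1290.2.S1_at (log2 fold change 0.283), Ta.28907.1.S1_at (-0.095), Ta.28907.2.S1_a_at (-0.079), TaAffx.128795.10.S1_x_at (-0.075) and TaAffx.128795.12.S1_x_at (-0.097). Those in the clusters of Ta.3232.1.S1_a_at, Ta.23081.2.S1_a_at and Ta.25578.1.S1_a_at fell. Of 5 mitochondrial probe sets 3 fell, and of 4 for transcription factor activity 3 fell. The transcription factor member LOC100049032 (Ta.8614.1.S1_at) read 974, 1235 and 1342 in C. LK and 790, 526 and 642 in Sp. LK, and this change of -0.87 on the log2 scale was not called without C. LK replicate 3 or Sp. LK replicate 2. The iron ion binding member Ta.5546.3.S1_a_at read 971, 925 and 808 in C. LK and 313, 402 and 261 in Sp. LK. It fell by 1.49 ± 0.23 (SE) on the log2 scale, adjusted p = 0.241 (2.06e-05 unadjusted). Another probe set of its cluster, Ta.5546.1.S1_a_at in the plastid class, fell by 0.87. The only methyltransferase member, Ta.5529.1.A1_x_at, read 1013, 2165 and 1653 in C. LK and 390, 198 and 523 in Sp. LK. Of the 34 calls, 17 were kept in every fit that left out a single array, 10 were lost without C. LK replicate 2 and 9 without Sp. LK replicate 2. Of the 39, Ta.27139.1.S1_x_at was called nearest to the fold threshold, at a log2 fold change of -0.586.

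**Figure D3:**
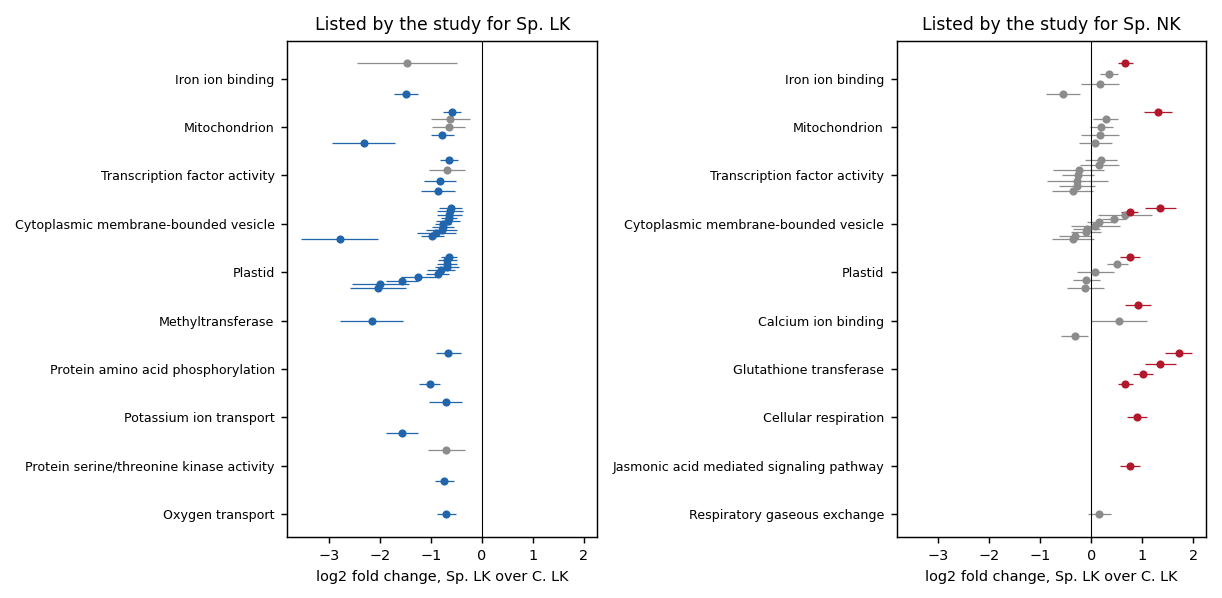
Log2 fold change of Sp. LK over C. LK (horizontal axis; bars show the SE) of the probe sets that the study listed for Sp. LK (left) and for Sp. NK (right), by functional category, with called falls in blue, called rises in red and others in grey. All 39 on the left lie below 0, while the 37 on the right spread from -0.55 to 1.71, with the 4 glutathione transferase probe sets all rising.

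Of the glutathione transferases, which join glutathione to reactive or foreign molecules and are known to rise under many root stresses, the 4 probe sets that the study had listed as higher in Sp. NK rose in Sp. LK as well, while 3 of the zeta-class gene GSTZ1 were not called. LOC542993 (Ta.3679.1.S1_x_at) read 384, 151 and 248 in C. LK. In Sp. LK it read 985, 717 and 718, so the groups did not overlap. The means of 261 ± 117 and 807 ± 154 (SD, n = 3) differed 3.28-fold, with a log2 fold change of 1.71 ± 0.26 (SE), adjusted p = 0.241 (1.67e-05 unadjusted). LOC542991 (Ta.3681.1.S1_x_at) was brighter, at 3204, 1922 and 3099 in C. LK and 5039, 6020 and 5187 in Sp. LK, which gave a log2 fold change of 1.02 ± 0.20 (SE). LOC542992 (Ta.1457.1.S1_x_at) read 4181, 3399 and 3250 against 4929, 6434 and 5834, a log2 fold change of 0.67, adjusted p = 0.389 (5.65e-04 unadjusted). The calls of LOC542993 and LOC542991 were kept in every fit without a single array. The suffix _x_at marks probe sets whose probes can also bind other transcripts, so related family members may share their signal. The GSTZ1 probe sets (LOC543412) overlapped between the groups, with log2 fold changes of 0.26 for Ta.237.1.S1_a_at, -0.08 for Ta.237.1.S1_at and 0.23 for TaAffx.56524.1.S1_at.

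The glutathione transferases come from a second list of the study, 37 probe sets that it found higher in Sp. NK than in C. NK, a comparison made on the other 6 arrays. In Sp. LK vs. C. LK 9 of the 37 rose and none fell, against 2.98% rises over all probe sets tested, and the remaining 28 did not pass the test. The median log2 fold change was 0.16 beside 0.04 over all, with 24 above 0 and 13 below. The 9 rises took in 4 of 4 glutathione transferases and the single members for cellular respiration and jasmonic acid signalling. Ta.22678.1.A1_s_at (cellular respiration, the oxidation of sugars for ATP) read 428, 323 and 540 in C. LK and 752, 927 and 683 in Sp. LK, which amounts to 0.89 ± 0.20 (SE) on the log2 scale. Ta.25405.2.S1_a_at (jasmonic acid mediated signalling, a hormone pathway of wounding and defence) read 508, 465 and 667 against 784, 1160 and 840. Of 3 calcium ion binding members Ta.23032.2.S1_x_at rose, with a log2 fold change of 0.92, and the other two did not pass. None of the 7 probe sets for transcription factor activity was called, and their median was -0.26. The respiratory gaseous exchange member, Ta.28112.1.S1_at, read 565, 303 and 344 in C. LK and 496, 467 and 353 in Sp. LK, which overlap.

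The lowest p-values belonged mostly to probe sets without a gene symbol. Ta.25964.1.A1_at read 1123, 1115 and 1337 in C. LK. It read 450, 363 and 374 in Sp. LK, 3.02-fold lower. Its log2 fold change of -1.59 ± 0.21 (SE) had the lowest p of the comparison (adjusted p = 0.169, 2.76e-06 unadjusted). Its C. LK signals stood above those of all other arrays, which reached 687 at most in C. NK. Ta.1677.1.S1_at showed the same order, at 752, 722 and 691 in C. LK and 283, 378 and 248 in Sp. LK. It fell by 1.27 ± 0.18 (SE) on the log2 scale, adjusted p = 0.179 (5.85e-06 unadjusted). In the normal-K groups it read 292 to 405, and its difference between the sides was -1.25 ± 0.25 (SE), adjusted p = 0.982 (2.23e-04 unadjusted). Ta.18735.1.S1_at fell by 1.00 on the log2 scale, from 1080, 1127 and 1530 to 537, 746 and 582. The lowest p among the rises was that of Ta.1156.1.S1_x_at. It read 352, 280 and 617 in C. LK and 1173, 1450 and 1097 in Sp. LK. The log2 fold change was 1.65 ± 0.24 (SE), adjusted p = 0.226 (1.11e-05 unadjusted). Of the others of this cluster, Ta.1156.1.S1_at rose by 1.65 and Ta.1156.2.S1_x_at by 1.14. The dimmer Ta.1156.2.S1_at and Ta.1156.3.S1_at were not called, at 0.45 and -0.19. TaAffx.520.1.S1_at and Ta.6099.1.S1_at also rose, with log2 fold changes of 1.34 and 1.16 and no overlap of the groups. Ta.27307.1.S1_at, also among the 10 probe sets with the lowest p in either direction (adjusted p = 0.317, 1.48e-04 unadjusted), fell short of the fold threshold with a log2 fold change of -0.579. The calls of the other 9 were kept in every fit that left out a single array.

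The 31 largest falls formed a block with a common profile that did not follow the K supply alone. They were the bright, fully separated probe sets with a log2 fold change under -2, and among them only Ta.723.1.S1_at had a gene symbol, TUBA, an alpha-tubulin of the microtubules. It read 2159, 3265 and 2501 in C. LK. In Sp. LK it read 455, 92.7 and 740, an 8.27-fold lower geometric mean. The log2 fold change was -3.05 ± 0.94 (SE), adjusted p = 0.528 (0.00626 unadjusted), and it moved to -2.17 without Sp. LK replicate 2 and to -3.67 without Sp. LK replicate 3. Its normal-K arrays ranged as widely, from 135, 239 and 1999 in Sp. NK to 258, 556 and 1981 in C. NK. Replicate 3 was the highest array for all 31 probe sets in C. NK and for 30 in Sp. NK, and the signal varied by more than 4-fold within C. NK for 24 and within Sp. NK for 21. Replicate 3 was on average also the highest array within Sp. LK. The Sp. LK replicates 1 to 3 lay on average 0.95, 2.56 and 0.05 log2 units below the 12-array mean of each probe set. Sp. LK replicate 2 was thus the lowest of the low-K arrays. The C. LK replicates 1 to 3 lay 1.29, 1.85 and 1.82 above that mean. In an alternative fit with a term for the replicate number, Ta.22854.1.S1_x_at, Ta.24635.1.S1_at, Ta.24665.1.S1_x_at and TaAffx.58820.2.S1_at of these falls passed adjustment, at unchanged log2 fold changes. Beyond that fit, the part of these differences among replicates in the falls was not tested. The second tubulin alpha probe set of TUBA, Ta.812.1.S1_x_at, had a log2 fold change of 0.04 and overlapping groups. The largest fall of all bright probe sets, Ta.24155.2.S1_x_at, read 580, 1878 and 779 in C. LK and 78.3, 3.73 and 176 in Sp. LK. Its log2 fold change of -4.67 ± 1.55 (SE) was -5.79 without Sp. LK replicate 3, and it was -3.01 and not called without Sp. LK replicate 2. Ta.28098.1.S1_x_at read 400, 453 and 507 against 41.6, 14.1 and 201 and was called without any single array, at log2 fold changes from -4.22 without Sp. LK replicate 3 to -2.31 without Sp. LK replicate 2. Of the 8 largest falls, 5 were kept in every such fit, and TaAffx.56982.3.S1_at was lost in 6 of the 12, those without any C. LK array or without replicate 2 of Sp. LK, Sp. NK or C. NK.

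Both falls among the probe sets of the study's qRT-PCR table other than the potassium transport gene had this profile, and their primers are given because these are the probe sets of that table with the widest spread.
Ta.4969.1.S1_x_at forward: gaccacctcaagaacacctcc
Ta.4969.1.S1_x_at reverse: gcagcgaagcgcaatactac
Ta.22338.2.S1_a_at forward: agaagagaacgtctgtcatctgc
Ta.22338.2.S1_a_at reverse: acgttctcctcttactcagagtct
Ta.4969.1.S1_x_at read 482, 1817 and 802 in C. LK and 69.7, 3.17 and 129 in Sp. LK, -4.86 ± 1.72 (SE) on the log2 scale, and its C. NK arrays read 60.8, 72.2 and 1292. Ta.22338.2.S1_a_at read 163, 494 and 223 against 96.5, 8.69 and 33.5, a log2 fold change of -3.11 ± 1.2 (SE). Their mean log2 signals of 6.96 and 6.23 lie under the bright threshold, and both calls were lost without Sp. LK replicate 2, where the log2 fold changes were -3.23 and -2.2, the second also without C. LK replicate 2. Of the remaining 9 probe sets of that table none was called. Ta.593.2.S1_x_at came nearest, at 1361, 1288 and 1563 in C. LK and 2343, 1942 and 1814 in Sp. LK. Its log2 fold change of 0.53, adjusted p = 0.491 (0.00272 unadjusted), lay under the fold threshold. Ta.6556.1.S1_x_at (LOC543463), among the brightest, read 12790 to 14920 in C. LK and 11970 to 13370 in Sp. LK and overlapped.

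**Figure D4:**
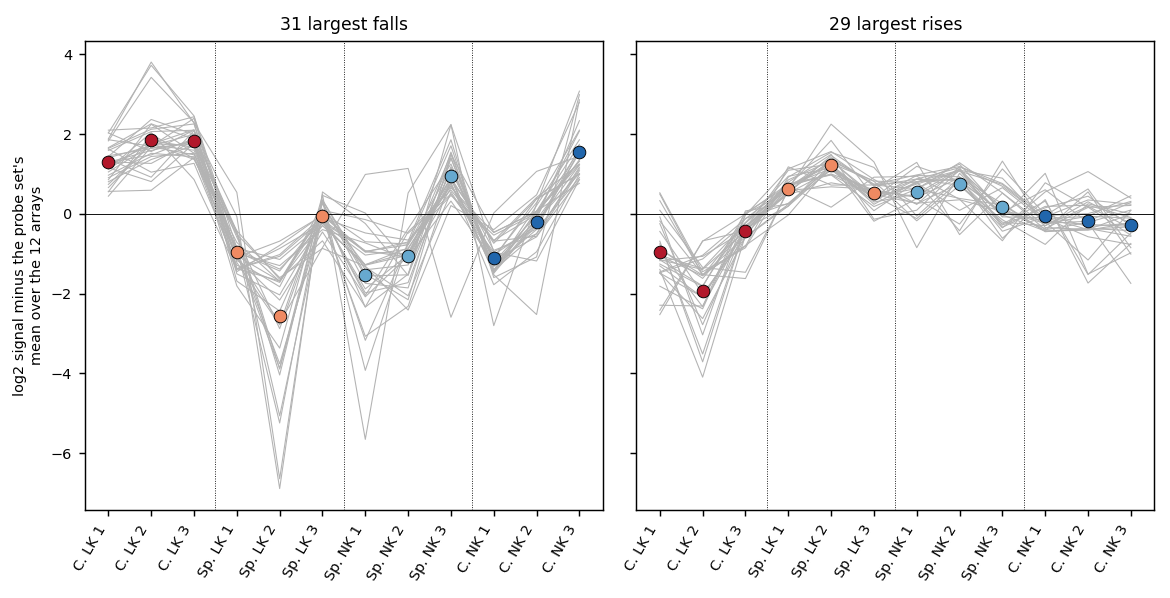
Log2 signal minus each probe set's own mean over the 12 arrays (vertical axis) on each array (horizontal axis), for the 31 largest bright falls (left) and the 29 largest bright rises (right), with grey lines joining the values of a probe set and coloured points giving the array means. The falls are high on all C. LK arrays but also on replicate 3 of both normal-K groups. Within Sp. LK their mean is also highest on replicate 3. The rises are lowest on C. LK replicate 2.

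The largest rises were also unnamed, and the range of their C. LK arrays was wide. Ta.23205.1.S1_at read 224, 34.3 and 406 in C. LK and 922, 1562 and 983 in Sp. LK. The log2 fold change was 2.94 ± 0.61 (SE), adjusted p = 0.342 (3.10e-04 unadjusted). A second probe set of this cluster, Ta.23205.1.S1_x_at, read 171, 169 and 653 against 959, 2171 and 1393, with a log2 fold change of 2.42. Ta.19202.1.S1_at read 298, 135 and 559 against 988, 1960 and 1093, with a log2 fold change of 2.18 ± 0.39 (SE). In these 3 probe sets all C. LK signals lay below all C. NK signals, which were 769 to 1146 for Ta.19202.1.S1_at. The Sp. LK signals of Ta.23205.1.S1_at lay above those of C. NK, at 570 to 728, while those of the other two overlapped them. Of the 29 bright, separated rises with a log2 fold change above 1.5, C. LK replicate 2 was the lowest of the 6 low-K arrays in 22, and C. LK replicates 1 and 3 in 5 and 2. All 8 of the largest rises remained called without any single array, with log2 fold changes for Ta.23205.1.S1_at of 1.90 when C. LK replicate 2 was left out and 3.68 when C. LK replicate 3 was, which also gave 3.07 for Ta.23205.1.S1_x_at. Over all 696 rises the median difference from C. NK was -0.42 in C. LK, 0.39 in Sp. LK and 0.23 in Sp. NK. Over the 370 falls it was 0.48, -0.42 and -0.15. These medians describe where the 4 groups stood, and the choice of the probe sets fixes the sign of the Sp. LK minus C. LK difference in them.

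Few of the calls could be named, because the array annotation gives a single gene symbol to 1273 probe sets and to 793 of the bright ones. With a symbol there were 21 bright rises of 20 genes and 9 bright falls of 9 genes. LOC543100 (Ta.570.1.A1_at) read 101, 105 and 134 in C. LK and 209, 354 and 207 in Sp. LK, 1.15 ± 0.25 (SE) higher on the log2 scale. LOC543150 (Ta.21350.2.S1_at) read 2498, 2574 and 2458 in C. LK and 6642, 5459 and 3066 in Sp. LK, a difference of 0.94 ± 0.24 (SE) on the log2 scale. The normal-K groups of both genes lay with Sp. LK, at 4118 to 6633 for the second. LOC542799 (Ta.13183.1.S1_s_at) rose by 1.54 on the log2 scale, LOC100037538 (Ta.1457.2.S1_at), from the same cluster as LOC542992, by 0.89, and LOC543216 (Ta.21055.1.S1_at) by 0.78, the last not called without Sp. LK replicate 2. Other probe sets in the clusters of LOC543150 and LOC542799 were not called and overlapped between the groups. The brighter Ta.21350.1.S1_x_at had a log2 fold change of 0.09, and Ta.13183.1.S1_x_at had 0.44. In the cluster of LOC100037538 and LOC542992, the bright Ta.1457.1.S1_s_at had 0.42, under the fold threshold. The dim Ta.1457.1.S2_at of that cluster was not called either. Among the named falls beyond those already given, LOC543448 (TaAffx.6140.1.S1_s_at) read 197, 159 and 158 in C. LK and 87.5, 86.2 and 99.8 in Sp. LK, a log2 fold change of -0.91 ± 0.27 (SE). LOC543368 (Ta.639.1.S1_at) and LOC778410 (Ta.6492.3.S1_s_at) both fell by 0.60, calls that were lost without C. LK replicate 1 and, for the first, without Sp. LK replicate 2 and, for the second, without C. LK replicate 2 or Sp. LK replicate 1.

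Few members of the gene families that could be assembled from symbols and synonyms were called. Over all probe sets tested 2.98% rose and 1.79% fell, so lists this short would hold few calls in any case. The counts of calls therefore say little about the families. None of 18 probe sets for core histones, the proteins that package DNA and are made as cells divide, passed the test. They report 5 genes, so they are not 18 separate members. Of the 18, 16 were lower in Sp. LK, and the median log2 fold change was -0.34 beside 0.04 over all probe sets. Their summed signal was 134350 to 156940 in C. LK and 87721 to 136790 in Sp. LK, which overlap. Of 10 tubulin probe sets only the TUBA probe set above fell. None of 8 for translation, 9 for ion transport and metal chelation (the plasma membrane proton pump among them), 10 for dehydrins and other drought proteins, 13 for sugar metabolism and 4 for gibberellin synthesis was called. Of these 7, 8, 1, 3 and 0 were bright, so most members of the last 3 lists were too dim for a precise comparison. Of 4 defence probe sets PR5 (LOC543292, Ta.24501.1.S1_at), a thaumatin-like protein induced by pathogens, was called as a rise. It read 724, 21.8 and 367 in C. LK and 1027, 1108 and 414 in Sp. LK, so the groups overlapped, and the call was lost without C. LK replicate 2, Sp. LK replicate 1 or Sp. LK replicate 2. Of 5 methyl transfer probe sets that of PIMT (LOC543193, Ta.162.1.S1_at), an enzyme that repairs damaged aspartate residues of proteins, rose from 45.6, 66.0 and 93.7 to 96.4, 131 and 97.9. That call held in 2 of the 12 fits without a single array. Of 14 probe sets for peroxide and thiol enzymes, Prx1 (LOC606328, Ta.6572.1.S1_at) was called at Sp. LK signals of 2.44, 20.04 and 7.36 that overlapped those of C. LK, and with signals under 32 set to 32 it had no difference.

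The normal-K side of the split plants was compared in Sp. NK vs. C. NK, on the other 6 arrays. There the neighbouring compartment changed the opposite way, from 1.0 to 0.005 mmol/L, so both comparisons set split against uniform supply but not the same change of the neighbour. Among the bright probe sets 57 rose on both sides, 8.19% of the 696 rises in Sp. LK and 24.2% of the 236 in Sp. NK. In the same way 8 fell on both, 2.16% of 370 and 6.61% of 121. Over all bright probe sets, 0.889% rose and 0.456% fell in Sp. NK. In 6 cases a rise in Sp. LK was a fall in Sp. NK and in 1 case the reverse. The test of the difference between the sides gave an unadjusted p under 0.05 for 815 of the bright probe sets (3.07%) and 2389 of all (3.91%), and none passed after adjustment, the lowest adjusted p being 0.982. LOC542991 and Ta.25964.1.A1_at changed on both sides: the former by 1.02 in Sp. LK and 0.87 in Sp. NK, with a difference of 0.14 ± 0.28 (SE), and the latter by -1.59 and -0.76. Ta.113.1.S1_at and Ta.1677.1.S1_at changed in Sp. LK, while in Sp. NK they gave 0.00 and -0.02.

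**Figure D5:**
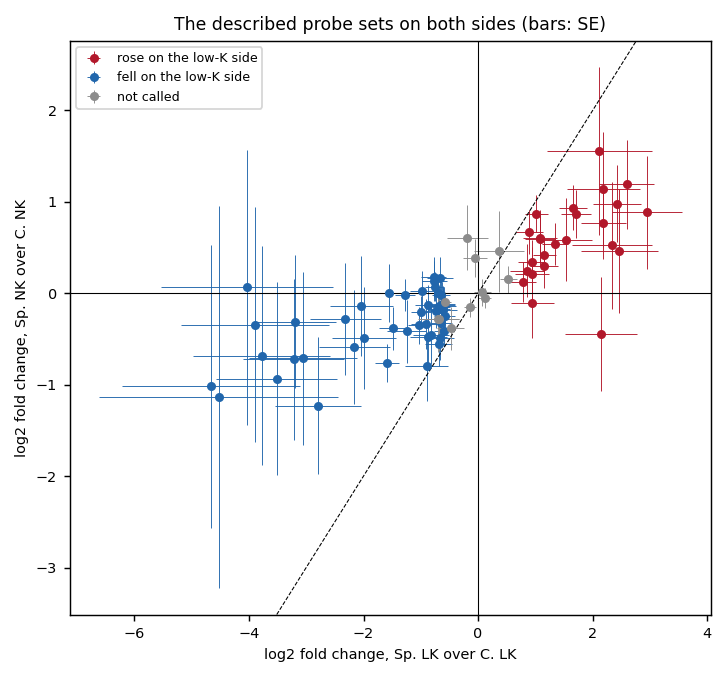
Log2 fold change of Sp. NK over C. NK (vertical axis) against that of Sp. LK over C. LK (horizontal axis) for the bright probe sets selected for description. Bars show the SE, the dashed line marks equal changes, and colours give the call in Sp. LK vs. C. LK. Of the 24 rises, 22 lie above 0 on the normal-K side too, and of the 46 falls 39 lie below 0 there, with medians of 0.59 and -0.29. Each of these changes is smaller on the normal-K side. The probe sets were chosen by their change in Sp. LK vs. C. LK, which favours this outcome, so it is not evidence of a stronger response on the low-K side.

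The arrays differed little in overall quality. Signals were scaled to a trimmed mean of 500.08 to 500.09, and 30.4% to 33.8% of the signals of an array were under 32. The log2 signals of the bright probe sets correlated at 0.964 to 0.976 within the pair of groups and at 0.929 to 0.978 between them. C. LK replicate 2 and Sp. LK replicate 2 deviated most from the 12-array means, by 0.289 and 0.261 log2 units on average against 0.175 to 0.232 for the other 10. The difference between 3' and 5' probe sets of 3 wheat control transcripts, a sign of RNA integrity, overlapped between the groups, with an exact two-sided permutation p of 0.60 for each, where 3 against 3 arrays cannot give less than 0.10. Markers of other tissues were mostly dim: of 34 leaf photosynthesis probe sets 6 were bright, 2 rose and 2 fell, with a summed signal of 7873 to 8454 in C. LK and 6862 to 7733 in Sp. LK. Of 28 grain storage probe sets 4 were bright and 3 rose, with a summed signal of 6684 to 7423 in C. LK and 7669 to 9192 in Sp. LK. Neither summed signal overlapped between the groups: in Sp. LK the leaf sum was lower and the grain sum higher. Over all probe sets tested, 2.98% rose and 1.79% fell. The grain list rises were both probe sets of an avenin-like a gene (LOC780582) and the dim purothionin THI1.1, and the first, Ta.905.2.S1_x_at, read 363, 290 and 615 in C. LK and 804, 1007 and 760 in Sp. LK. The part of these marker differences in the other changes was not tested.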

How the data were processed

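The deposited values were log2 signals of 12 Affymetrix Wheat Genome arrays, which the authors made with the MAS 5.0 algorithm in GeneSpring 11.0 without pooling replicates. MAS 5.0 scales each array to a common trimmed mean, so a shift of all transcripts is not visible. No probe-level data or detection calls were analysed here. Signals under 32 are near background, and low values scatter widely on the log2 scale.

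Group means of the 12 arrays were fitted with limma 3.58.1 in R 4.3.3 (variance trend, Benjamini-Hochberg adjustment over 61115 probe sets), and the contrast was Sp. LK minus C. LK. The difference between the sides was the contrast of that with Sp. NK minus C. NK. A rise or fall passed both thresholds of the study's methods, 0.05 for the unadjusted p and 1.5 for the fold change. Linear signals are given per array, and fold changes are differences of log2 means. The fit was tested on simulated data. The spread between 3 arrays limits the precision, and p-values measure only the spread between these replicates.

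Probe sets were selected for description if the study listed them for Sp. LK or gave them in the qRT-PCR table. The 12 largest rises or falls with 1 gene symbol and the 8 largest whatever their annotation (bright, called, groups separated) were also selected. So were the 5 lowest p in each direction and up to 2 called members of a gene list. Not all of the 95 selected are given singly in the text, and of the list for Sp. NK up to 6 are named. Names came from the platform annotation, matched by gene ID to RefSeq (IWGSC CS RefSeq v2.1) for 1272 of 1273 probe sets with a symbol. That table holds symbols without descriptions, so 4 of the 19 planned lists had members: proton pumps (3 probe sets), a glutathione and peroxide list (2), cytoskeleton (2) and defence (2), with no call. A further 12 lists were written from symbols after the files were seen. The members and lists were chosen with earlier results of these data known.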

Additional observations from a re-analysis of the deposited data

How the results depend on the processing

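Precision was limited by 3 arrays a group and by dim signals, with a median SE of 0.43 log2 units over all probe sets against 0.19 for the bright ones. None of the 95 probe sets selected for description changed direction while called under any alternative. Of the 80 called, 62 to 80 remained called under the other fits, scalings and the methods' t-test, and 44 at a fold change above 2. In the fits without a single array 57 to 78 remained, and 48 were kept in all 12 of them. Among all probe sets the rises and falls were 1156 and 668 with signals under 32 set to 32, and 1156 probe sets rose at a fold change above 2. Among the bright ones they were 333 and 232 with the methods' t-test, 143 and 112 at a fold change above 2, and 457 and 243 when bright began at a mean log2 signal of 8. Setting signals to 32 also let 5 probe sets pass the adjusted threshold for Sp. LK vs. C. LK and 4 for the difference between the sides, all with mean log2 signals under 5, where such a floor removes the spread between replicates: TaAffx.2243.1.S1_at, TaAffx.51787.1.S1_x_at, TaAffx.71653.1.A1_at, TaAffx.82013.2.S1_x_at and TaAffx.93286.1.S1_at for the former.

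Leaving out single arrays gave 1179 to 2598 rises and 1000 to 1479 falls over all probe sets, 362 to 1171 and 281 to 718 among the bright, 2886 to 5838 probe sets with an unadjusted p under 0.05, and 0 to 9 after adjustment. The 9 came without C. LK replicate 3, and 1 each without C. LK replicate 1 (Ta.3679.1.S1_x_at) and without Sp. NK replicate 2 (Ta.25964.1.A1_at). Without both arrays numbered 2, chosen after seeing the data, 1035 probe sets rose over all and 227 among the bright. In that fit 2532 had an unadjusted p under 0.05, and 43 of the 80 calls among the selected probe sets remained. Keeping the reporter probe sets, also added, left all 80.

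The replicate numbers did not pair the Sp. LK with the C. LK arrays: deviations of same-numbered arrays correlated at -0.093, -0.181 and 0.046, and no array correlated best with its own number. Between Sp. NK and C. NK they correlated at 0.343, 0.208 and 0.351, each array best with its own number, and the other 4 pairs of groups ranged from -0.239 to 0.3. Among those 4, Sp. LK with Sp. NK, which may or may not share plants, gave -0.208, 0.268 and 0.254. In that pair 4 arrays correlated best with their own number, against 2 in each of the remaining pairs. With a block for the replicate number, 10 probe sets passed adjustment in the fit of 12 arrays, among them Ta.25964.1.A1_at and Ta.25578.1.S1_a_at (adjusted p = 0.0283 and 0.0102) and Ta.3679.1.S1_x_at and Ta.10832.1.S1_at (0.0429 each). The SE of Ta.25578.1.S1_a_at was 0.125 with the block and 0.343 without it. For Ta.10832.1.S1_at it was 0.254 and 0.554. These probe sets were picked because they passed with the block, which favours a smaller SE there. Whether they vary with the replicate number was not tested. The paired fit of 6 arrays passed 2 (Ta.24635.1.S1_at and Ta.5825.1.S1_x_at), and 78 and 77 of the 80 calls remained.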
